A study of Homo sapiens with 10 samples.

Results

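The comparison set the human prostate cancer cell line LNCaP against the prostate cancer cell line DU145 across every state in which both were measured, with 5 arrays of each line and 10 arrays in all, which is the whole series. Arrays were matched by title, so that each LNCaP array had a DU145 array with the same vector, treatment and number. Each line had 2 PGK arrays, from control cells whose vector carries GFP and puromycin resistance under the ubiquitous PGK promoter, and 2 EOS arrays, from cells selected in puromycin with a vector that drives the same genes from enhancers of OCT4 and SOX2. The fifth array of each line, EOS R, was made from the EOS 2 cells once treated with the guanosine analogue ribavirin, so it shares its cells with the array EOS 2. Every group thus carried a transduced vector with GFP and puromycin resistance, and no group of untransduced cells was measured here. LNCaP was derived from a lymph node metastasis and DU145 from a brain metastasis. Each is 1 line, and the labels do not say that arrays of a line came from separate cultures. The p-values below therefore rest on array-to-array spread that may be technical, and the differences describe these lines and not classes of tumour.

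LNCaP is known as an androgen-responsive line with features of the luminal cells that line prostate glands and secrete seminal proteins. Luminal identity rests on the androgen receptor together with transcription factors such as FOXA1 and HOXB13, and on factors of the grainyhead and ETS families that keep epithelial junction genes active. DU145 grows without androgen and is known for features that luminal cells lack, among them the hyaluronan receptor CD44 and the junction repressor ZEB1.

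Intensities were scaled to a trimmed mean of 500 in each array, and levels below are on that linear scale unless a log2 value is named. A gene counted as on in a line when its level was at or above the 75th percentile of the array in all 5 arrays of the line, and as off when it was below the median of the array in all 5. The 75th percentile lay between 362 and 409 and the median between 53.4 and 71.2 in the 10 arrays. Line differences are LNCaP minus DU145 on the scale log2(intensity + 16), with the standard error of the limma fit. They understate the change of dim genes, and the difference of a gene that is off in a line depends on the added 16. Where such a gene was on in the other line and its difference is printed in the text, a least fold is given with it. The least fold divides the geometric mean of the line that has the gene on by the geometric mean of the array medians of the other line. The arrays numbered 1 and 2 differed in deposited scale, with trimmed means of 500 against 96.6 to 127, and in the 3′ over 5′ ratio of the actin control probe sets, at 1.24 to 1.51 against 3.20 to 3.99. Both lines had 2 arrays numbered 1 and 3 numbered 2, so the number does not run with the line.

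The 7 marker genes named for the lines matched the labels on every array. KLK3, which encodes prostate-specific antigen, lay at 30850 and 33030 in LNCaP PGK 1 and 2, at 41190 and 28500 in EOS 1 and 2, and at 28620 in EOS R, against 8.58 to 43.1 in the 5 DU145 arrays. KLK2, a neighbouring secreted kallikrein, lay at 5985 to 19100 in LNCaP and at 5.43 to 12.9 in DU145. The serine protease TMPRSS2 ranged from 3525 to 10770 in LNCaP and from 6.43 to 33.7 in DU145. All 3 are known androgen targets, and the lowest LNCaP value of KLK2 and of TMPRSS2 was that of PGK 2. CDH1, the adherens junction cadherin of epithelia, lay at 17250 to 25800 in LNCaP and at 27.7 to 101 in DU145, a line difference of 8.12 ± 0.19 (limma adjusted p = 2.4e-08). Its DU145 values of 101.1 in PGK 1, 72.5 in PGK 2 and 71.6 in EOS R lay above the array median, so CDH1 was on in LNCaP without being off in DU145 by the rule.

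Of the markers of DU145, CD44 lay at 2655 and 2772 in PGK 1 and 2, at 3411 and 2421 in EOS 1 and 2 and at 2267 in EOS R, against 1.22 to 21.4 in LNCaP. ZEB1, a repressor of CDH1, lay at 1645 to 2010 in DU145 and at 1.17 to 39.7 in LNCaP. GSTP1, a glutathione transferase whose promoter is known to be methylated in many prostate tumours, lay at 5418 to 6202 in DU145. In LNCaP it lay at 41.8 to 138, above the array median in EOS 1, EOS 2, PGK 2 and EOS R, so it was not off there by the rule. Its line difference was -5.70 ± 0.24 (limma adjusted p = 3.8e-07). The ranges of the lines did not overlap for any of the 7 markers, which was also so for 6076 of all 14315 genes tested.

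Across the genome the lines differed in about every other gene. Of 14315 genes tested, 7240 differed by limma at an adjusted p under 0.05, which is 50.6%. LNCaP was higher in 3546 of them (24.8%) and lower in 3694 (25.8%), and the median absolute difference of all genes was 0.56 on the log2 scale. Against a difference of at least 2-fold, with limma's treat, 1877 genes (13.1%) passed, 785 of them higher in LNCaP (5.48%) and 1092 lower (7.63%). The difference was over 5 on the log2 scale for 221 genes, 85 higher in LNCaP and 136 lower. With so many genes called, a call by itself says little about a gene.

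The strictest contrast was that of genes on in a line and off in the other. In all 5 pairs, 82 genes were on in LNCaP and off in DU145 (0.573% of the genes tested) and 134 were on in DU145 and off in LNCaP (0.936%). These on-off genes, 216 in all (1.51%), were chosen by their levels, so their line differences are given as a description and with no test. Their median differences were 5.95 and -5.56, and their median least folds were 29.4 and 23.6. The median level of all their arrays was 1805 in the line that had them on and 11.2 in the other for the genes on in LNCaP, and 1388 against 12.8 for those on in DU145. By comparison, 6251 genes were on in all 10 arrays. The rule was met in at least 1 pair by 350 genes for LNCaP and by 441 for DU145, so most genes that met it in some pair did not meet it in all 5. In single pairs 175 to 212 genes met it for LNCaP and 240 to 294 for DU145, and in each of the 5 pairs more genes were on in DU145.

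**Figure D1:**
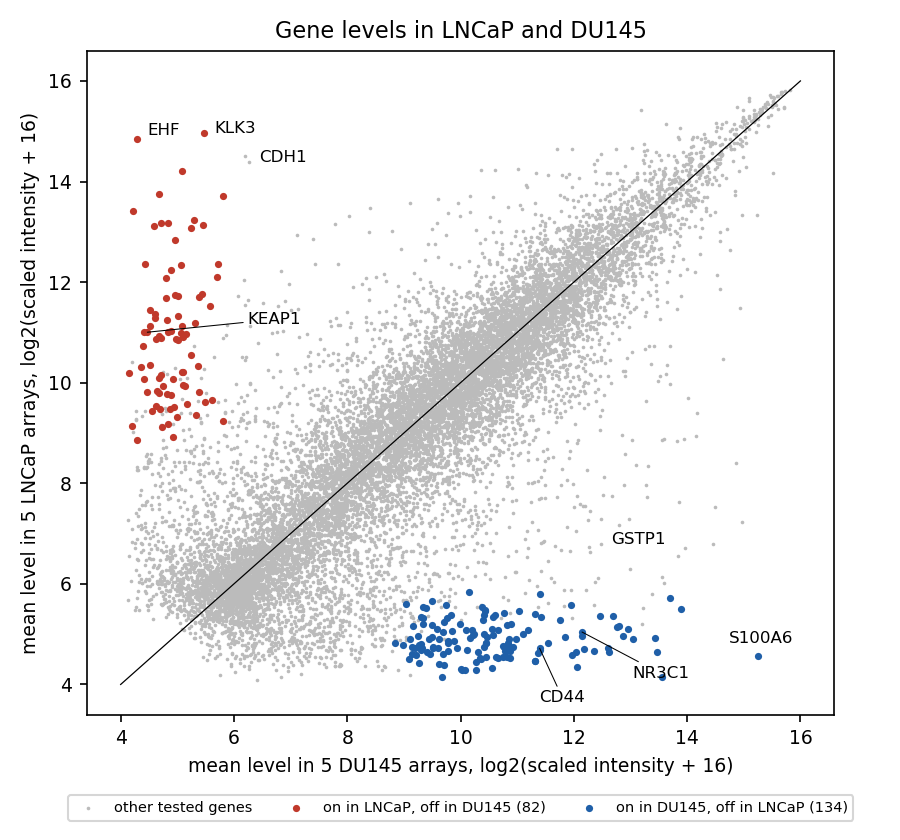
Mean level of each of 14315 genes in the 5 DU145 arrays (x axis) and the 5 LNCaP arrays (y axis), both as log2(scaled intensity + 16), with the line of equal levels. The 82 genes on in LNCaP and off in DU145 (red) lie along the left edge and the 134 genes on in DU145 and off in LNCaP (blue) along the bottom, while CDH1 and GSTP1 lie just off those edges.

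The genes furthest apart were, in LNCaP, EHF, KLK3 and MME, and in DU145, S100A6, TFPI2 and ANXA1. They are ranked by their least gap, the smallest line difference among the 5 pairs, a rank that depends on values under the array median, which have no order. The 250 bases before the annotated start of each are shown, because the promoters of the genes on in LNCaP were as a group poorer in CG dinucleotides than those of all genes tested, as described below. Sequences are from RefSeq on GRCh38.p14, read 5′ to 3′ on the strand of the gene, with CG dinucleotides in capitals. The window of EHF lies at chr11:34624007-34624256, plus strand, that of KLK3 at chr19:50854665-50854914, plus strand, and that of MME at chr3:155079422-155079671, plus strand. The window of S100A6 lies at chr1:153535992-153536241, minus strand, that of TFPI2 at chr7:93890754-93891003, minus strand, and that of ANXA1 at chr9:73151615-73151864, plus strand. RefSeq's table gives 2 starts for EHF and 4 for MME, and the first listed was taken.
EHF: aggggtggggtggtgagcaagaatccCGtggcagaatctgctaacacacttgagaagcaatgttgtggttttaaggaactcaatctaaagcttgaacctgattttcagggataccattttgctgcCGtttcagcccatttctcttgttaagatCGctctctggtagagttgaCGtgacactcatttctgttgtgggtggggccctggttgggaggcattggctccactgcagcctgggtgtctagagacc
KLK3: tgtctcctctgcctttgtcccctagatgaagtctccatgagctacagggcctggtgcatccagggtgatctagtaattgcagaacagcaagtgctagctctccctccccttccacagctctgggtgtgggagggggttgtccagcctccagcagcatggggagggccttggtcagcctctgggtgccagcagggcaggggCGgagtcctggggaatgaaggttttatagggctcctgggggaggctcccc
MME: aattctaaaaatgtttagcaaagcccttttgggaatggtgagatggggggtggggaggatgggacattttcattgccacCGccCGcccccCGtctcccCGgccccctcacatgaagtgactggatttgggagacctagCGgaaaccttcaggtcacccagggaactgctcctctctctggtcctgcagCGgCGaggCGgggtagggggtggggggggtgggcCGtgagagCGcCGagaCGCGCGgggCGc
S100A6: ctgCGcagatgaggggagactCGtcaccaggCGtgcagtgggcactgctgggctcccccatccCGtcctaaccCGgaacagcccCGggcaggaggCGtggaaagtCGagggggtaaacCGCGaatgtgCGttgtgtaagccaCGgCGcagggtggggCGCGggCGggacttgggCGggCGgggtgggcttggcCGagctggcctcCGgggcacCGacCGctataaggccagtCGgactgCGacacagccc
TFPI2: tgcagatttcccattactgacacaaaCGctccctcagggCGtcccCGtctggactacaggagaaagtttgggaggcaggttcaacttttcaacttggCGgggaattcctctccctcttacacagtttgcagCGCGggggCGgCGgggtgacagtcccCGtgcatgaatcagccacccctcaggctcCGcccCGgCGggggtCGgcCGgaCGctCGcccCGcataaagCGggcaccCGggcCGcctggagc
ANXA1: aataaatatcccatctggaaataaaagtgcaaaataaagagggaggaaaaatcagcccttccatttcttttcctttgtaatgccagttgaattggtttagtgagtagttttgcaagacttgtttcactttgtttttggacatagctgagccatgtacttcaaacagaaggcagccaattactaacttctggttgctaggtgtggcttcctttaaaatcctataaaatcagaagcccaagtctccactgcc
In these 250 bases EHF has 4 CG dinucleotides, KLK3 has 1 and MME has 15, against 24 for S100A6, 20 for TFPI2 and 0 for ANXA1. The extremes of both directions thus include CG-poor windows, and the 3 windows of a direction are not alike.

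EHF is an ETS factor of epithelial cells. It lay at 22650 and 32880 in LNCaP PGK 1 and 2, at 23480 and 36450 in EOS 1 and 2 and at 35330 in EOS R, against 0.876 to 7.96 in DU145. The difference was 10.57 ± 0.18, and LNCaP was at least 460.2-fold above the ceiling for off genes in DU145. The 3 LNCaP arrays numbered 2 were above both numbered 1. The other 5 kept probe sets of EHF gave differences of 3.27 to 5.97, so the size depends on the probe set and the direction does not. For KLK3 the least fold was 500.4, the highest of the genes on in LNCaP and above that of EHF, and the difference 9.50 ± 0.16. Its chosen probe set is of the kind that can bind related transcripts, and its other 2 probe sets gave 1.44 and 10.13.

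MME, which encodes the cell surface protease neprilysin, lay at 6568 and 9321 in LNCaP PGK 1 and 2, at 6729 and 19200 in EOS 1 and 2 and at 18930 in EOS R, with 1.28 to 4.84 in DU145. EOS 2 and EOS R, which share cells, were the highest LNCaP arrays. ADAMTS1, a secreted metalloprotease, lay at 6295 to 14410 in LNCaP and at 1.20 to 26.8 in DU145. FOLH1B and FOLH1, near-identical genes of which FOLH1 encodes prostate-specific membrane antigen, lay at 8400 to 10770 and at 446 to 520.2 in LNCaP, and at 4.40 to 43.5 and 7.32 to 27.3 in DU145. Their probe sets may read each other's transcript, so the split between them is uncertain. PRAC1, a gene beside HOXB13 known for expression in prostate and colon, ranged from 4304 to 18400 in LNCaP and from 21.5 to 35.9 in DU145. ANK3, an ankyrin that ties membrane proteins to the cytoskeleton, lay at 6878 to 10330 in LNCaP and at 1.03 to 48.5 in DU145.

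Of the other genes on in LNCaP, MAL2, a protein of apical transport, lay at 7277 to 11180 against 2.06 to 36.2, a difference of 8.34 ± 0.35 and a least fold of 144. RAB25, an epithelial small GTPase, lay at 2598 and 2538 in LNCaP PGK 1 and 2, at 3371 and 2631 in EOS 1 and 2 and at 2723 in EOS R, against 2.31 to 17.4 in DU145. Its LNCaP arrays were close together, with EOS 1 highest. GRHL2, a grainyhead factor that activates junction genes, lay at 3951 to 5173 in LNCaP and at 21.1 to 53.0 in DU145. The serine protease ST14 and the tight junction protein CLDN4 were on in LNCaP too, with differences of 6.06 ± 0.19 and 5.82 ± 0.36 and least folds of 34.7 and 31.1.

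Antigens whose expression is normally kept to the germ line formed a further group on in LNCaP. MAGEA12 lay at 9322 and 9264 in LNCaP PGK 1 and 2, at 9043 and 9385 in EOS 1 and 2 and at 9305 in EOS R, with 4.80 to 18.4 in DU145. It varied less among LNCaP arrays than most genes described here. MAGEA6, its neighbour on chromosome X, lay at 17910 to 20740 against 3.77 to 39.9. Probe sets of the MAGEA family are shared between near-identical copies, so the values of single members are uncertain. PAGE1 and MAGEA1 were on in all LNCaP arrays but not at 1 level. PAGE1 lay at 6112 and 7722 in the LNCaP arrays numbered 1 and at 19390 to 22530 in those numbered 2. MAGEA1 lay at 2430 and 1564 against 9106 to 11700. Of 27 cancer-testis antigens listed, 13 were tested, and 9 of these were called higher in LNCaP and 0 lower. By over 2-fold in the treat test 7 were higher, and the median difference was 2.01 against -0.03 for all genes. A gene was tested only if it lay above the array median in at least 2 arrays. The median tested member lay at 6.61 to 23.2 in the DU145 arrays, under the array median. Typical members thus entered through LNCaP, and their direction was largely set by the filter. Not all testis antigens shared it: CT83, another X-linked one, was on in DU145 at 3874 to 6124 and off in LNCaP at 2.16 to 26.4.

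Some genes on in LNCaP outside these groups were singled out after their values were seen. KEAP1, the adaptor that targets the antioxidant factor NRF2 for degradation, lay at 2408 and 1940 in LNCaP PGK 1 and 2, at 2047 and 1802 in EOS 1 and 2 and at 2035 in EOS R. In DU145 it lay at 4.94 and 6.74 in PGK 1 and 2, at 5.19 and 7.57 in EOS 1 and 2 and at 6.57 in EOS R. The ranges were thus narrow in both lines, with a difference of 6.53 ± 0.18 and a least fold of 31.7. KEAP1 was read by 1 kept probe set, so no second probe set checks it. NDN and PEG3, which are known to be expressed from the paternal copy only, were both on in LNCaP, NDN at 2406 to 3382 and PEG3 at 914.1 to 1885. In DU145 they lay at 4.47 to 69.5 and at 13.1 to 26.7. The highest DU145 value of NDN, in EOS R, was just under the array median.

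S100A6 is a calcium-binding protein. It lay at 38510 and 34430 in DU145 PGK 1 and 2, at 36890 and 40870 in EOS 1 and 2 and at 44750 in EOS R, against 3.16 to 18.6 in LNCaP. The difference was -10.68 ± 0.17, and DU145 was at least 682-fold above the ceiling for off genes, the highest least fold of the genes on in DU145. A second probe set gave -1.97, the same direction and a far smaller size. TFPI2, a secreted inhibitor of serine proteases, lay at 10480 and 10240 in DU145 PGK 1 and 2, at 17360 and 13240 in EOS 1 and 2 and at 10370 in EOS R, and at 1.16 to 2.28 in LNCaP. All 5 LNCaP values of TFPI2 lay under the array median, as the rule requires, so they have no order. ANXA1, an annexin that binds membranes in the presence of calcium, lay at 13750 to 16210 in DU145 and at 18.8 to 36.4 in LNCaP.

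Of the other genes on in DU145, CAV1, the structural protein of caveolae, lay at 10180 to 12450 in DU145 and at 1.78 to 29.8 in LNCaP, a difference of -8.81 ± 0.25 and a least fold of 198. SPTBN1, a spectrin of the membrane skeleton, lay at 11880 to 14750 and at 19.5 to 54.8, although its other 5 probe sets gave differences from -4.84 to -0.71. BASP1, a membrane-bound signalling protein, lay at 7008 to 9269 against 1.75 to 36.2, and EDIL3, a secreted ligand of integrins, at 6122 to 12690 against 1.80 to 31.6. That all of these were higher in every DU145 array than in any LNCaP array follows from the on-off rule.

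CYP24A1, which degrades active vitamin D, lay at 11520 and 11710 in DU145 PGK 1 and 2, at 16150 and 8540 in EOS 1 and 2 and at 8767 in EOS R, with 1.65 to 32.3 in LNCaP. Its DU145 levels were lowest in EOS 2 and EOS R. ECHDC1, a decarboxylase that removes side products of fatty acid synthesis, lay at 3614 to 5364 against 1.11 to 11.8. The cell surface protein gene LY6K lay at 4473 to 5673 against 3.17 to 22.0, and COXFA4L3 at 4494 to 9899 against 2.70 to 20.1.

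Further genes on in DU145 were singled out after their values were seen. NR3C1, the glucocorticoid receptor, lay at 4836 and 4842 in DU145 PGK 1 and 2, at 4226 and 4528 in EOS 1 and 2 and at 4175 in EOS R, against 5.78 to 38.7 in LNCaP. Its other 4 probe sets all gave lower values in LNCaP, from -2.50 to -7.79. DKK1 and DKK3, secreted proteins of the family of Wnt inhibitors, lay at 4354 to 7514 and at 968.9 to 1539 in DU145, and at 11.97 to 45.2 and 4.96 to 30.6 in LNCaP. NKX2-1, a homeobox factor known from lung and thyroid, and its neighbour SFTA3 lay at 1027 to 1755 and at 1527 to 2392 in DU145, and at 5.399 to 45.2 and 2.03 to 26.1 in LNCaP. SLFN11, known for sensitising cells to damage of DNA, lay at 637.2 to 1048 in DU145 and at 1.30 to 6.92 in LNCaP.

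**Figure D2:**
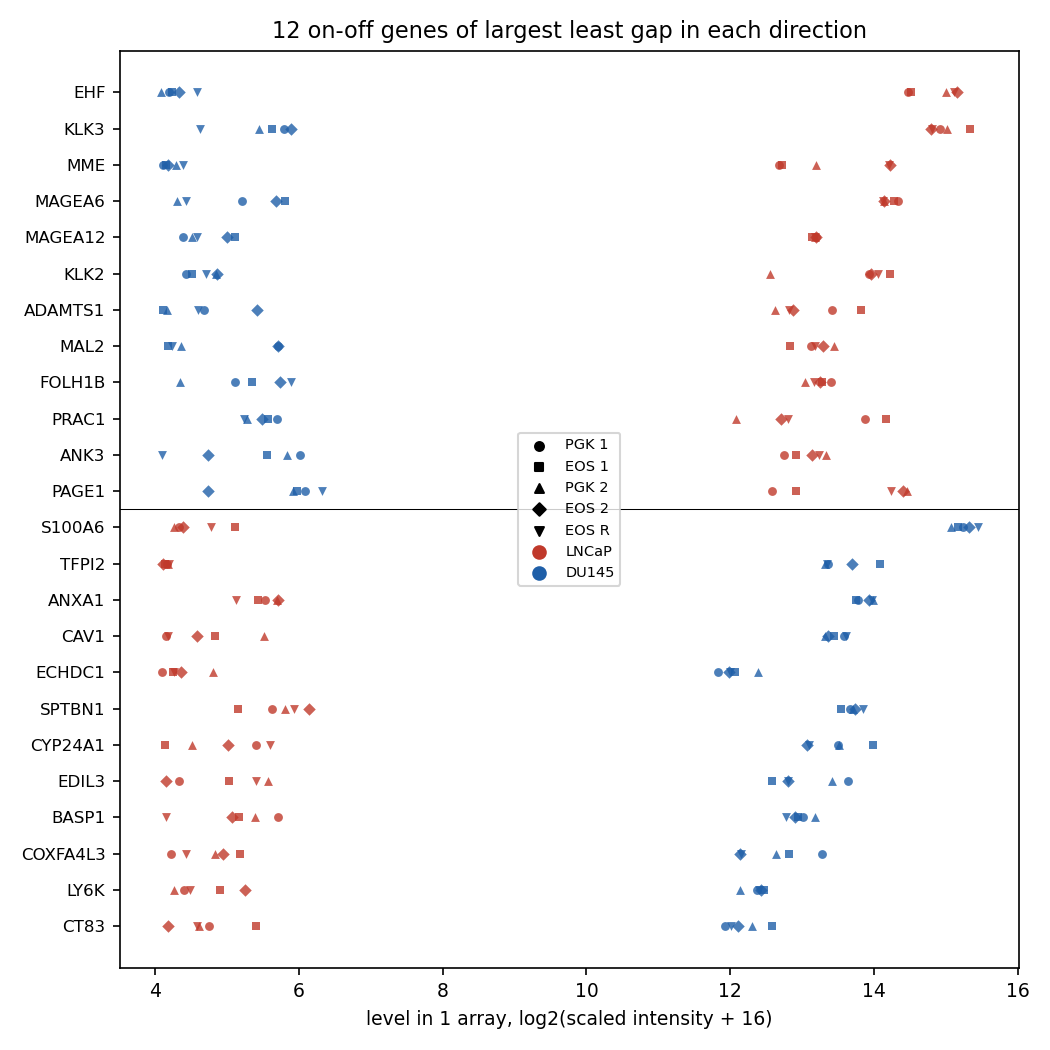
Level of each array, as log2(scaled intensity + 16), for the 12 genes of largest least gap on in LNCaP (upper block) and on in DU145 (lower block), with LNCaP in red, DU145 in blue and 1 symbol per state and number. In every row the lines lie at opposite ends, which the choice of genes requires. The differences include 10.57 for EHF and 7.92 for PAGE1 in the upper block, and -10.68 for S100A6 and -7.48 for CT83 in the lower block.

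Genes near the thresholds are given to show how the rule divides them. HLF, NDN and MMP16 were the nearest inside it for LNCaP, with LNCaP levels from 391.3, 2406 and 401, and SARM1, PDZK1IP1 and FGF13 the nearest outside, each meeting it in 4 of 5 pairs. For DU145, LGALS3, DAPK1 and TIAM1 were the nearest inside, with LNCaP levels up to 59.1, 62.0 and 51.9. RIOX1, MCAM and ANK2 were the nearest outside, again in 4 pairs. PDZK1IP1 lay at 689.3 to 2287 in LNCaP and at up to 73.1 in DU145, and RIOX1 at 1455 to 1958 in DU145 and up to 55.8 in LNCaP, so a gene just outside can differ as much as one inside.

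The counts of each gene list below stand against 24.8% of all genes called higher in LNCaP and 25.8% called lower, and, past 2-fold, 5.48% and 7.63%. Among targets and regulators of the luminal state, most tested genes were higher in LNCaP. Of 21 androgen-responsive secretory genes, 17 were called higher and 0 lower, 16 of them by over 2-fold in the treat test, with a median difference of 2.93. KLK3, KLK2, TMPRSS2, ZBTB16 and FOLH1 met the on-off rule, while TMEFF2, at 0.49, was among the 4 that did not pass the test. The other 2 probe sets of TMEFF2 gave 1.22 and 5.88, so its result depends on the probe set. Of 9 luminal transcription factors and coregulators, 7 were called higher and 0 lower. The coregulators were NCOA1, called higher at 1.19, NCOA2 and PIAS1, and the androgen receptor was not among the 9. HOXB13, the homeobox factor of the prostate, lay at 3700 and 2513 in LNCaP PGK 1 and 2, at 3954 and 3436 in EOS 1 and 2 and at 3499 in EOS R, against 7.41 to 44.5 in DU145. SPDEF, an ETS factor of secretory epithelium, differed by 5.08 ± 0.26 (limma adjusted p = 1.1e-06), with another of its probe sets opposite in sign. FOXA1, which opens chromatin for the androgen receptor, differed by 2.45, and the coregulators NCOA2 and PIAS1 were not called.

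Of 21 junction and polarity genes tested, 18 were called higher in LNCaP and 1 lower, with 14 higher by over 2-fold in the treat test and a median difference of 2.65. EPCAM, an epithelial adhesion molecule, and CLDN7, a claudin, differed by 5.08 and 5.83. The exception was OCLN, occludin, at -0.47, whose other probe sets include the opposite sign and whose call was lost in 9 of 23 alternatives. They include leaving out DU145 PGK 2 (adjusted p = 0.074), DU145 EOS R (0.083) or LNCaP EOS R (0.082). Among 8 epithelial splicing and transcription factors 7 were higher and 1 lower. ESRP1, which sets epithelial splicing, lay at 1784 to 3915 in LNCaP and at 57.2 to 180 in DU145, a difference of 4.38 ± 0.25 (limma adjusted p = 2.2e-06). The lower one was KLF5, a factor of basal and proliferating epithelium, at -2.65.

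Factors that drive loss of epithelial features did not move together. Of 7 tested, 2 were called higher in LNCaP and 3 lower. ZEB1 and TWIST2 met the on-off rule for DU145, and FOSL1, a subunit of AP-1, differed by -3.79 ± 0.37 (limma adjusted p = 5.5e-05). TCF4 and SNAI2, however, were higher in LNCaP, by 3.50 and 2.09. FOSL1 lay at 8.39 to 41.4 in LNCaP and TCF4 at 1.27 to 35.8 in DU145. These levels were under the array median, so the size of both differences depends on the added 16. Of 16 mesenchymal cytoskeleton and matrix genes, 10 were lower in LNCaP and 3 higher. AXL, a receptor tyrosine kinase, lay at 7027 to 13060 in DU145 and at 2.92 to 59.6 in LNCaP, a difference of -8.01 ± 0.28 (limma adjusted p = 1.6e-07). VIM, the intermediate filament vimentin, differed by -3.45, whereas FN1, fibronectin, was higher in LNCaP by 5.37 and CALD1, caldesmon, by 2.73. TGFBI, a matrix protein, was on in DU145 over a wide range, at 8961 and 5183 in the arrays numbered 1 and at 2400, 1137 and 1097 in PGK 2, EOS 2 and EOS R.

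Surface and membrane groups were mostly lower in LNCaP. All 5 tested caveolae genes were called lower, with 5 of 5 by over 2-fold in the treat test. The median tested member lay at 9.25 to 29.8 in the LNCaP arrays, under the array median, and at 5418 to 6505 in DU145. Typical members thus entered through DU145, and their direction was largely set by the filter. CAV2, the partner of CAV1, lay at 7269 to 8908 in DU145 and at 1.10 to 510.4 in LNCaP, where PGK 2 was highest. Of 17 annexins and S100 proteins, 13 were lower and 1 higher, with a median difference of -1.31. ANXA2, a membrane-binding annexin, lay at 29820 to 34090 in DU145 and at 126 to 165 in LNCaP, a difference of -7.73 ± 0.11 (limma adjusted p = 3.5e-09). The higher one, S100P, was on in LNCaP at 482.2 to 1506. Of 11 integrin subunits 10 were lower and 0 higher, but 1 passed the 2-fold test, ITGA3 at -3.09 ± 0.31 (limma adjusted p = 5.7e-05). Among 5 basal epithelial genes, LAMB3, a laminin chain, and DST, a hemidesmosome linker, were lower by -4.02 and -3.40, and CDH3, P-cadherin, was higher by 4.33.

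Ligands and receptors of growth factor signalling divided between the lines. Of 5 EGF receptor ligands 3 were lower in LNCaP and 1 higher. Epiregulin, EREG, lay at 885.4 to 1970 in DU145 and at 1.86 to 25.6 in LNCaP, while EGF lay at 318 to 798 in LNCaP and at 44.8 to 68.4 in DU145. Among the receptors MET was lower in LNCaP, by -4.74 ± 0.64 (limma adjusted p = 0.00033), and ERBB3 higher, by 2.89 ± 0.14 (limma adjusted p = 8.8e-07), although another probe set of ERBB3 had the opposite sign. MET lay at 16.2 to 55.4 in 4 LNCaP arrays and at 510.7 in PGK 2.

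Of 13 cytokines and NF-kappa-B targets, 7 were lower in LNCaP and 1 higher, or 61.5% called against 50.6% of all genes. The median tested member lay at 18.4 to 72.1 in the LNCaP arrays, near or under the array median. Members off in LNCaP entered through DU145, and their direction was largely set by the filter. CXCL5, a chemokine for neutrophils, lay at 4808 and 3355 in DU145 PGK 1 and 2, at 3583 and 3164 in EOS 1 and 2 and at 3520 in EOS R, against 0.601 to 32.9 in LNCaP. IL18, an inflammasome cytokine, lay at 860.9 to 3341 in DU145 and at 1.74 to 33.1 in LNCaP. The higher one was NFKBIA, the inhibitor of NF-kappa-B, at 1.06. Of 11 plasminogen activators, matrix proteases and inhibitors, 6 were lower and 1 higher, or 63.6% called. TIMP1, an inhibitor of matrix proteases, and PLAU, the activator urokinase, differed by -5.48 ± 0.32 and -5.44 ± 0.37 (limma adjusted p = 2.4e-06 and 6.3e-06).

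Of 15 class I antigen presentation genes 12 were lower in LNCaP and 1 higher, with a median difference of -1.15, although 2 were lower by over 2-fold in the treat test. ERAP2, a peptidase that trims antigenic peptides, differed by -3.29 ± 0.18 (limma adjusted p = 1.9e-06). PSMB9, an immunoproteasome subunit, lay at 118 to 152 in LNCaP PGK 1, PGK 2 and EOS 1 and at 574.9 and 628.6 in EOS 2 and EOS R, against 481 to 1117 in DU145, so its ranges overlapped. Interferon-stimulated genes had no common direction, with 7 of 18 higher in LNCaP and 5 lower, or 66.7% called. IFITM3, a membrane protein that restricts viruses, was higher by 3.69 and IFIT1, which binds foreign RNA, lower by -2.85.

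Enzymes of glutathione metabolism and targets of NRF2 were mostly lower in LNCaP. Of 22 tested, 17 were lower and 2 higher, with 12 lower by over 2-fold in the treat test and a median difference of -1.92. AKR1C3, a steroid and aldehyde reductase, lay at 1821 to 4111 in DU145 and at 2.96 to 108 in LNCaP, a difference of -5.83 ± 0.41 (limma adjusted p = 7.2e-06). Members of the AKR1C family are near copies, and AKR1C1 had a probe set of opposite sign. HMOX1, heme oxygenase, and NQO1, a quinone reductase, were lower by -3.89 and -1.64, and GSTM3, a glutathione transferase, and MGST2, a microsomal one, were higher by 3.55 and 2.01. The level of KEAP1 was given above, and its part in these differences was not tested.

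Steroid enzymes and secretory metabolism showed the opposite side. Of 10 androgen-inactivating and steroid enzymes 7 were higher in LNCaP and 1 lower. UGT2B28, a glucuronosyltransferase, was on in LNCaP at 12560 and 10560 in the arrays numbered 1 and at 3826, 1064 and 926.4 in PGK 2, EOS 2 and EOS R. UGT2B15 and UGT2B17, its close relatives, lay at 15740 to 16430 and 5129 to 6751 in the LNCaP arrays numbered 1 and at 633.7 to 1946 and 79.4 to 276 in those numbered 2. Their probe sets may cross-read. Of 14 genes of polyamine, zinc and lipid metabolism 9 were higher and 1 lower. FASN, fatty acid synthase, lay at 1681 to 2828 in LNCaP and at 346 to 559 in DU145, and AMD1, an enzyme of polyamine synthesis, at 14250 to 20930 and 3317 to 4549.

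Regulators of growth and position were mixed. Of 11 tumour suppressors and mismatch repair genes 2 were higher in LNCaP and 4 lower, or 54.5% called, near the 50.6% of all genes. CDKN2A, the locus of p16, lay at 8731 to 11330 in DU145 and at 493.2 to 1388 in LNCaP, and CDKN1A, p21, was higher in LNCaP by 1.53. Of 15 ETS factors 5 were higher and 8 lower, or 86.7% called, with ETS1 and ETV5 lower by -5.93 and -5.59 beside EHF and SPDEF higher. ETV5 was off in LNCaP, with a least fold of 26.4. Of 22 HOX genes 3 were higher and 13 lower with a median difference of -1.09, and HOXB13 was the 1 member on in LNCaP. By over 2-fold in the treat test 2 HOX genes were higher and 3 lower. The median tested HOX gene lay at 60.2 to 92.3 in the LNCaP arrays, near the array median, and at 113 to 180 in DU145. Of 2 neuroendocrine genes tested, ENO2, neuron-specific enolase, was lower by -1.24, a call lost in 5 of 23 alternatives, among them the arrays paired (limma adjusted p = 0.10), the arrays numbered 1 alone (0.14) and those numbered 2 alone (0.30), and NCAM1, at -0.04, did not pass the test.

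Genes of G2 and mitosis were lower in LNCaP in 14 of 20 cases and higher in 1, with a median difference of -0.60. MKI67, the Ki-67 antigen, lay at 594.6 to 972 in LNCaP and at 3608 to 4820 in DU145, and was the 1 member that passed the 2-fold test. Ribosomal proteins were tested as a group expected to be alike in most cells. Of 16, 1 was called, RPS3 at -0.22 ± 0.08 (limma adjusted p = 0.049), and the median difference was 0.08. The call of RPS3 was lost in 17 of 23 alternatives, with 9 of the 10 arrays left out in turn among them. That is 6.25% of the group against 50.6% of all genes.

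**Figure D3:**
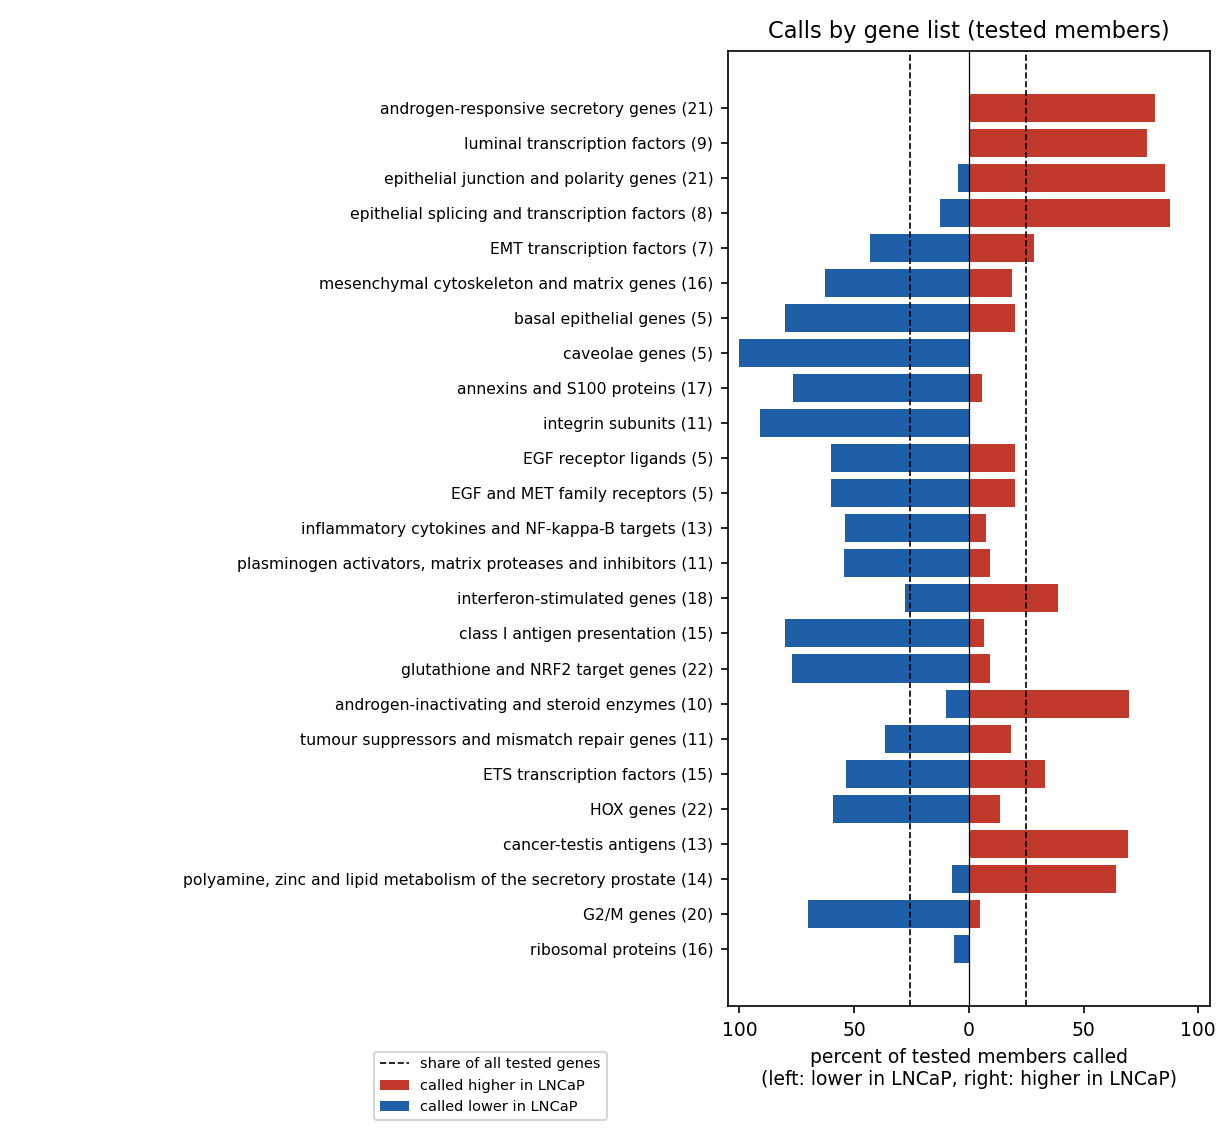
Percent of the tested members of each gene list (number in brackets, lists of at least 5) called higher (red, right) or lower (blue, left) in LNCaP by limma at an adjusted p under 0.05. Dashed lines mark the shares of all genes, 24.8% and 25.8%; androgen-responsive and junction genes lie to the right, caveolae genes and integrins to the left, and ribosomal proteins near 0.

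Adjacent genes on a chromosome that met the on-off rule together were counted, with no test. No 3 adjacent tested genes met the on-off rule in the same direction, and 7 adjacent pairs did. In LNCaP these were KLK3 with KLK2, PRAC1 with HOXB13, MAGEA12 with MAGEA6, and NETO1 with its divergent transcript NETO1-DT. In DU145 they were TFPI2 with GNG11, SFTA3 with NKX2-1, and PRKCQ-AS1 with SFMBT2. By chromosome, X had the highest share of on-off genes, at 17 of 469 or 3.62%, and 22 the lowest, at 0.285%, against 1.51% over all.

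The balance of smaller differences varied along the genome. On chromosome 1, 477 genes were called higher in LNCaP and 276 lower, and the median difference of all its genes was 0.17, from 0.05 to 0.37 in the 5 pairs. Chromosomes 3, 4 and 16 leaned the same way, with 271 higher against 165 lower, 191 against 106 and 203 against 99. Chromosome 15 leaned furthest the other way, with 73 higher and 164 lower and a median of -0.27, from -0.42 to -0.15 in the pairs. On chromosomes 6, 10 and 14 the counts were 127 against 249, 95 against 205 and 86 against 157. Chromosomes 7, 11, 13, 21 and 22 had pair medians on both sides of 0. Copy number was not measured here.

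**Figure D4:**
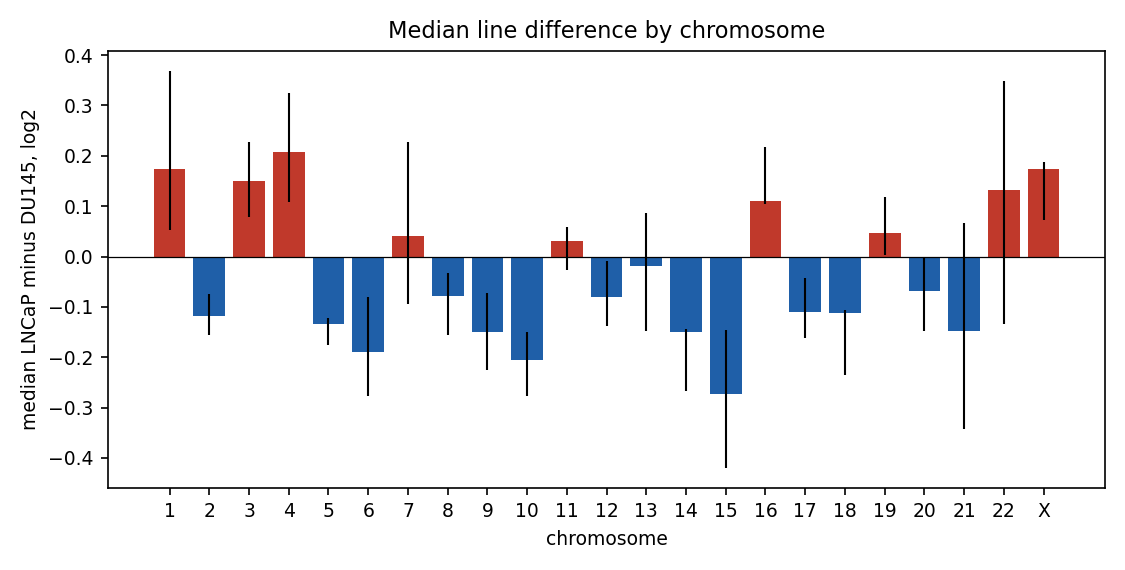
Median LNCaP minus DU145 difference (log2) of the tested genes on each chromosome, with bars for the fit over all arrays and vertical lines from the lowest to the highest of the 5 pair medians. Chromosomes 1, 3, 4, 16 and X are among those above 0 in every pair, and 5, 6, 10, 14 and 15 among those below it. Chromosome Y was left out.

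Promoter windows from 250 bases before to 50 bases after the start were held for 60 of the 82 genes on in LNCaP, 110 of the 134 on in DU145 and 11500 of the genes tested, taking the first listed start of each gene. The windows of genes on in LNCaP had a median of 15.5 CG dinucleotides, those of genes on in DU145 24 and those of all genes 25. Of the windows, 51.7%, 74.5% and 75.9% had a GC content over 50% and a ratio of observed to expected CG over 0.6. Over genes with 1 listed start the shares were 48.7%, 79.2% and 78.8%, for 39, 72 and 8267 windows. The share in the first group was thus lower with either choice, and no test was made because the genes were chosen by their levels.

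A set of 6 motifs was searched on both strands of the same windows. CACCTG, the E-box bound by ZEB1, was in 17 of 60 windows of genes on in LNCaP (28.3%), in 16 of 110 of genes on in DU145 (14.5%) and in 19.1% of all genes tested, and in 20.6% of the 27305 windows of the whole table. TATAAA was in 13.3%, 12.7% and 6.32%, a higher share in both groups of on-off genes than in all genes, and in 11.95% of the whole table. AACNNGTT, the core of the grainyhead motif, was in 1.67%, 2.73% and 2.59%, and TGANTCA, the AP-1 motif, in 3.33%, 3.64% and 4.77%. AGAACA, the core of the androgen response element, was in 8.33%, 4.55% and 9.17%. The full palindromic androgen response element was in 0 of these windows. CACCTG and TATAAA were singled out after their shares were seen, the counts are small, and a match describes letters in this window only.

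The line difference was next compared between states, by the interaction of line with state in the same fit. By limma at an adjusted p under 0.05, 0 genes (0% of those tested) had a line difference that changed with EOS selection, and the unadjusted p was under 0.05 for 463. For ribavirin the counts were 0 (0%) and 223. About 716 would be expected below that value by chance, so neither count exceeds it. This fit holds no term for the array number, and its power to find such changes was not measured. The 0 calls therefore do not show that the line difference is equal in all states. The genes of smallest p for EOS were TINAGL1, KCNH2 and RAB31, with changes of the line difference of 2.43 ± 0.48, 2.32 ± 0.46 and 1.55 ± 0.31. RAB31, a small GTPase of vesicle transport, lay at 512 and 585.8 in LNCaP PGK and at 1004 and 1265 in LNCaP EOS, and at 7135 and 6597 in DU145 PGK and 4082 and 5550 in DU145 EOS. For ribavirin they were MYT1, ACAD10 and ITPKB, at -3.19 ± 0.64, -2.58 ± 0.54 and 2.31 ± 0.49, each resting on 1 array in each line. None of these 6 passed the adjustment.

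The number of the array did change the line difference. Over the 8 PGK and EOS arrays, 123 genes (0.859%) had a line difference that differed between arrays numbered 2 and 1 by limma at an adjusted p under 0.05, 74 upward and 49 downward. The unadjusted p was under 0.05 for 2003 genes. In 120 of the 123 the shift between numbers was larger in LNCaP than in DU145, with median absolute shifts of 2.45 and 0.21. The count rested on single arrays: without DU145 PGK 1, EOS 1 or EOS 2 it was 78, 53 and 56, and without LNCaP EOS 1 or EOS 2 it was 196 and 187. PRXL2A lay at 6119 and 7868 in the LNCaP arrays numbered 1, at 33.7, 64.3 and 99.3 in PGK 2, EOS 2 and EOS R, and at 7448 to 9877 in DU145. Its line difference was -0.31 in the arrays numbered 1 and -6.73 in those numbered 2. PTPRM, a receptor phosphatase, lay at 1307 and 1192 against 3.72 to 51.6 in LNCaP. GALC, a lysosomal galactosidase, ran the other way, at 61.4 and 37.6 against 1132 to 1210. The LNCaP arrays numbered 1 and 2 are thus apart in these genes, and the number moves with the deposited scale and the actin end ratio given above; the part of either was not tested.

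The on-off rule asks for the same status in arrays of both numbers, so little change with the number is built into its genes and is no finding. Of the 216, 2 were called in that interaction, PAGE1 and MAGEA1, or 0.926% against 0.859% of all genes. The median gap between the line difference of arrays numbered 1 and of arrays numbered 2 was 0.52. The largest gap was that of NCAM2, a neural adhesion molecule, at 2.80, and NCAM2 lay at 2934 and 3722 in the LNCaP arrays numbered 1 and at 441.8 to 724.4 in those numbered 2. With the 4 arrays numbered 1 alone the rule gave 151 genes on in LNCaP and 208 on in DU145, and with the 6 numbered 2 alone 121 and 174. The rule asks for fewer pairs there, so larger counts follow from its construction.

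**Figure D5:**
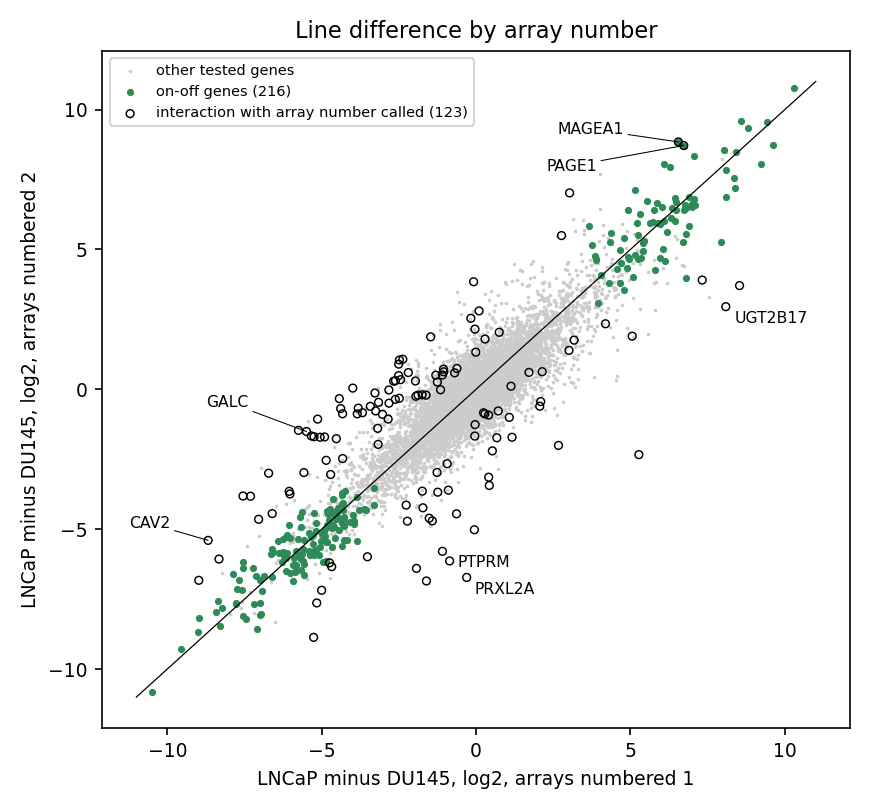
Line difference (LNCaP minus DU145, log2) of each gene in the arrays numbered 1 (x axis) and numbered 2 (y axis), with the line of equal values, the 216 on-off genes in green and the 123 genes called in the interaction with the number circled. The on-off genes, whose rule spans both numbers, lie near the line, while PRXL2A and PTPRM lie near 0 on the x axis and at -6.73 and -6.14 on the y axis.

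Markers of other cell types were read in both lines, and the fibroblast ones were not low on every array. Of 3 tested leukocyte markers 0 were called, and their summed level was 97.2 to 293 in LNCaP and 87.3 to 157 in DU145. Of 2 endothelial markers VWF was called, at 29.5 to 134 in LNCaP and 7.18 to 23.1 in DU145, and of 1 erythroid marker 0 were. Of 4 fibroblast markers POSTN and COL3A1 were called lower in LNCaP. In DU145 POSTN lay at 1730 and 2020 in EOS 2 and EOS R and at 31.9 to 135 in the other 3 arrays, and COL3A1 at 500.8 and 380.8 against 36.3 to 59.98. With the arrays numbered 1 alone the POSTN line difference was -1.51 (limma adjusted p = 0.081). The summed fibroblast level was 367 to 3135 in DU145 and 267 to 754 in LNCaP, and its part in the matrix genes above was not tested.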

How the data were processed

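RNA of 10 samples was measured on 1-colour Affymetrix arrays. The deposited values were linear probe set intensities. The submitters' processing notes list the tools MAS5 and affy, whose versions, roles and settings are not given in the sources used here. A common 2% trimmed mean of 500 was set for each array before taking log2(intensity + 16). Of 54675 probe sets, 62 controls were left out; 41097 had 1 gene symbol, 1801 several and 11777 none, and 41043 matched a current gene by Entrez identifier. Probe sets above the array median in at least 2 arrays were kept (33488), and the brightest was taken per gene, giving 14315 genes; chromosome Y and XIST were left out. Detection calls were not used. Arrays allow no depth to be given, and their number limits the precision.

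Limma 3.58.1 in R 4.3.3 fitted cell means of 6 groups with 4 residual degrees of freedom, a trend of variance with intensity, and Benjamini-Hochberg adjusted p-values with a threshold of 0.05; the line contrast weighted the states by their number of pairs. On simulated data with far fewer changed genes, this contrast recovered 32% of genes changed by 1 log2 unit and 90% of those changed by 2, among 14315. The adjustment is stricter when few genes change, so these shares do not apply to the data, where 7240 genes were called. Deviations of same-titled arrays correlated between the lines at r = 0.014 to 0.091 across genes. LNCaP PGK 1, EOS 1, PGK 2 and EOS 2 each correlated best with a DU145 array of another title, at r = 0.028 to 0.141. The matching by title thus rests on the labels and not on these values. Members and lists were chosen with earlier results of these data known. Named were the markers, the 12 widest on-off genes in each direction, leading members of each list, the leading genes of each interaction and genes at the edge of the on-off rule; other genes, exceptions within lists included, were named after their values were seen. Alternatives covered scaling, pseudocount, filter, probe set choice, pairing, array number, ribavirin arrays, thresholds and leaving out each array.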

Additional observations from a re-analysis of the deposited data

Results flagged for a closer look

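Among 132 genes named in the text, the line difference of 8 changed with the number of the array (limma, adjusted p under 0.05). Over all 14315 genes tested it was 123, or 0.859%. PRXL2A, PTPRM and GALC were named because they led that interaction, so the count of 8 is partly built in and is no finding about the named genes. On the log2 scale the line difference in arrays numbered 2 minus that in arrays numbered 1 was 3.66 for CAV2, 3.92 for GALC, 2.41 for MAGEA1 and 2.38 for PAGE1. It was -6.74 for PRXL2A, -4.81 for PTPRM, -4.45 for UGT2B15 and -4.97 for UGT2B17.

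In 21 of 264 combinations of a named gene and a line, 1 array stood far from the other 4 by Dixon's test. For genes not chosen by their values about 13 would be expected by chance. That figure does not hold for the named genes, so no excess can be read from the count. ACAD10, MYT1 and ITPKB were named for the ribavirin interaction, which rests on EOS R, so their flags on EOS R follow in part from that choice. Values are the log2 gap to the nearest other array. In LNCaP, PGK 2 stood apart for MET (2.88 above), KLK2 (1.39 below) and FGF13 (1.00 above), and PGK 1 for TGFBI (1.54 above). LNCaP EOS R stood apart for ACAD10 (1.97 below), MYT1 (1.86 below), DKK3 (1.04 above) and SFMBT2 (0.76 above), and LNCaP EOS 1 for FOXA1 (0.32 below), RAB25 (0.31 above) and ANXA2 (0.29 above).

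In DU145, EOS 1 stood apart for FOSL1 (1.29 above), CLDN7 (1.24 below), IFIT1 (0.73 below), ST14 (0.67 below), ERBB3 (0.48 below) and GALC (0.43 below). DU145 EOS R stood apart for ITPKB (1.95 below), EOS 2 for PAGE1 (1.19 below) and FOXA1 (0.31 below), and PGK 1 for PTPRM (0.38 below).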

How the results depend on the processing

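The call counts of 7240, 3546 higher and 3694 lower stayed within 1.5 times under the alternatives run except for the unscaled values (599, 235 and 364), which keep the difference in deposited scale, and limma's treat (1877, 785 and 1092), which tests a larger difference. With the array pairs as a replicate block 7889 genes were called, 7110 of them in both fits; among the named genes the block ended the call of ENO2 alone. Leaving out each array gave 6030 to 7071 calls, 2932 to 3418 higher and 3091 to 3653 lower. The EOS and ribavirin interactions stayed at 0 in every alternative run, with the number as a replicate block included. The interaction with the number fell to 66 genes with a pseudocount of 1 and ranged from 53 to 196 over arrays left out. The on-off counts of 82 and 134 became 29 and 32 with on at the 90th percentile, 60 and 78 with off at the 40th, 50 and 62 when every kept probe set had to meet the rule, and 151 and 208 in the arrays numbered 1 alone, an alternative chosen after seeing the data; they were 83 to 91 and 134 to 146 over arrays left out. NCAM1, not called, changed sign to 0.092 on unscaled values and 0.088 with quantile normalization, to 0.19 without the ribavirin arrays, 0.081 with those averaged into EOS 2 and 0.68 in the arrays numbered 1, and ranged from -0.24 to 0.19 over arrays left out; the cause was not tested. Of 2936 combinations of a named gene and an alternative, 2861 kept direction and call, 63 lost the call (27 of them on unscaled values), 2 gained it and 10 reversed. Arrays carry no detection call here, so levels under the array median have no order.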
